A study of Mus musculus with 6 samples.

Results

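S1pr1, S1pr4, S1pr5, Klf2, Cd69 and Cd44 were followed across 4 single-cell RNA-seq libraries of sorted CD8 T cells. They are 6 of the 32285 genes in the matrices and were chosen by name, as genes of T cell egress, retention and homing. The choice was made with earlier results of these data known. Each had at least 1 UMI (a counted transcript molecule) in each of the 4 libraries. Control mice carried CD8-Cre and the Rosa26Tomato reporter, and CD8-IFNγRKO mice carried the same 2 alleles together with IFNgR1 flox/flox. All mice bore B16-OVA melanoma and were sampled at day 12. Tomato+ CD8 T cells were sorted from lymph nodes (LN) and tumors, so Tomato, Cre and tumor were common to all 4 groups. Each group was 1 library of 3 pooled mice, so no difference has a replicate check, and every interval covers counting error only. The Cre was driven from CD8α, so the receptor was lost in CD8 T cells and not in the tumor or other host cells. Tumors were digested with enzymes at 37 °C and LN were mashed, so tissue and dissociation cannot be told apart.

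CD8 T cells leave a lymph node by following sphingosine 1-phosphate (S1P) into lymph. S1PR1 is the receptor that senses it, and the transcription factor KLF2 turns on S1pr1. CD69, an early activation antigen, binds S1PR1 and pulls it from the cell surface, a step that a transcript count does not see. S1PR4 and S1PR5 are further S1P receptors, the latter known from NK cells and terminal effector T cells. CD44 binds hyaluronan and marks antigen-experienced T cells. Type I interferon, whose receptor is not the one deleted here, is a known inducer of Cd69.

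Klf2 is shown here because it was the gene whose counts followed those of S1pr1 most closely in both tissues. RefSeq on GRCm38.p6 places Klf2 at chr8:72319062-72321654, and the 250 bases before its start are chr8:72318812-72319061 on the + strand. Capitals mark the core of a MEF2-type element and 2 GC boxes:

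Klf2 upstream: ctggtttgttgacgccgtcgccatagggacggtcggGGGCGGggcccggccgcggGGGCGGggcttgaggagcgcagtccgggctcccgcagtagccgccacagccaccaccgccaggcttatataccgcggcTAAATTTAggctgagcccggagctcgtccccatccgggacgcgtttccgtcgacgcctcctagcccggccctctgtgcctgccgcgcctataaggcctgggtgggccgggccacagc

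The MEF2-type letters TAAATTTA, which read the same on both strands, began 117 bases before the start. They occurred in 0.502% of 32851 such windows, and the GC box letters GGGCGG, on either strand, in 32.7%. Searches of both strands for a FOXO motif (TGTTTAC, 3.17% of windows), a KLF motif (CCACACCC, 3.20%) and an AP-1 motif (TGACTCA, 4.46%) found no match in the Klf2 window. Of the other members, S1pr4 (chr10:81497745-81500137), S1pr5 (chr9:21242917-21248443) and Cd44 (chr2:102811141-102901669) had a window. Of the 5 motifs these windows held only the GC box, with 2 matches for S1pr5. S1pr1 lies at chr3:115710433-115715055 and Cd69 at chr6:129267324-129275375. These are matches of letters and not bound sites.

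After filters, 6640 LN control, 6731 LN CD8-IFNγRKO, 7094 tumor control and 8632 tumor CD8-IFNγRKO cells remained, with 28841136 to 93932505 UMIs per library. Median UMIs per cell were 4051, 3863, 6302 and 9398, and to compare shares of cells each cell was therefore thinned to 1600 UMIs. Any 2 libraries shared 169 to 249 cell barcodes, at most 2.19% of a library. Cd2, Cd3e, Cd8a and Cd8b1 were detected at 441 to 1706 CPM (UMIs per 1000000 UMIs of the library) throughout. B cell, NK cell and melanoma markers summed to at most 2.43 CPM per list, and Ncr1, which defines NK cells, was at 0 in 3 libraries. Cd4 lay between 4.23 and 18.4 CPM. The 8 myeloid markers summed to 3.81 and 5.31 CPM in LN and to 82.9 and 61.6 CPM in tumors, where Fcer1g alone gave 65.9 and 48.9 CPM. Their part in the results was not tested. Ifngr1, the targeted gene, was at 182 CPM in LN control, 137 in LN CD8-IFNγRKO, 718 in tumor control and 238 in tumor CD8-IFNγRKO cells. It was thus 1.33-fold lower in the floxed LN library and 3.01-fold lower in the floxed tumor library. A 5′ tag need not lie in the deleted part of the gene, which limits this check.

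**Figure D1:**
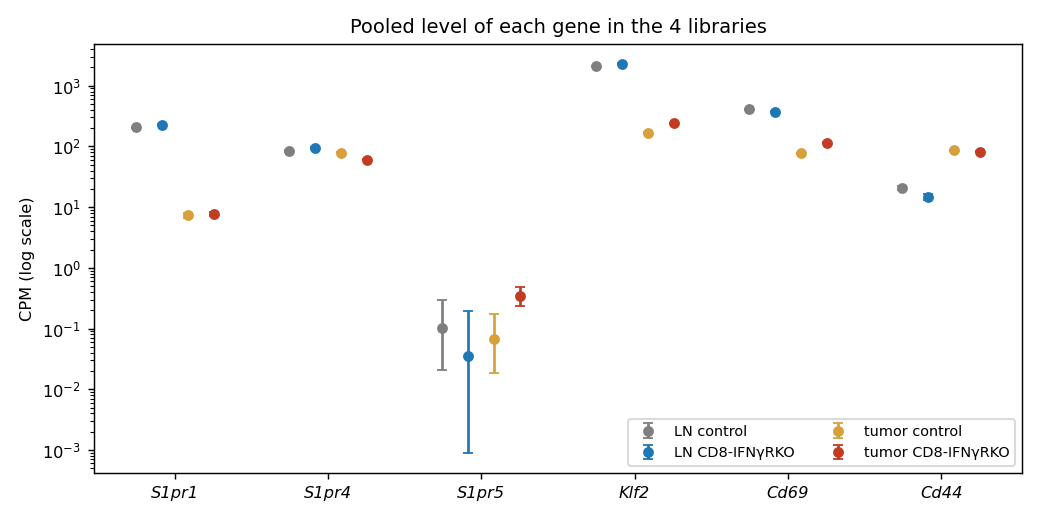
Pooled level of each gene, in CPM on a log axis, in the 4 libraries (1 point per library, bars are exact 95% Poisson intervals). S1pr1, Klf2 and Cd69 are lower and Cd44 higher in both tumor libraries, while S1pr5 lies below 1 CPM throughout.

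S1pr1 and its activator Klf2 were the members with the lowest tumor levels relative to LN, Cd69 was also lower in tumors, and Cd44 was higher. S1pr4 lay near its LN level in control tumors and, over cells of all depths, 1.53-fold below it in CD8-IFNγRKO tumors. S1pr1 was at 205 CPM (95% Poisson interval 200 to 210.0) in LN control, 229 (224 to 235) in LN CD8-IFNγRKO, 7.28 (6.61 to 8.0) in tumor control and 7.75 (7.20 to 8.33) in tumor CD8-IFNγRKO cells. Both tumor libraries thus lay far under both LN libraries. On the log2 scale with 1 CPM added, S1pr1 was at −4.64 (−4.76 to −4.51) in control tumor over LN and −4.72 (−4.82 to −4.62) in CD8-IFNγRKO tumor over LN. These are 24.9-fold and 26.3-fold lower levels. In the control comparison 18 of the 3332 genes compared had a lower ratio, and in the CD8-IFNγRKO comparison 13 of 3454.

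Klf2 was at 2101 CPM in LN control, 2302 in LN CD8-IFNγRKO, 168 in tumor control and 239 in tumor CD8-IFNγRKO cells. The log2 ratio of tumor over LN was −3.64 (−3.67 to −3.61) in control and −3.27 (−3.29 to −3.24) in CD8-IFNγRKO cells. After thinning, Klf2 UMIs were found in nearly every LN cell and in a minority of tumor cells. The shares were 89.1% and 91.0% in LN control and CD8-IFNγRKO, against 18.2% and 26.3% in the tumors. The corresponding shares for S1pr1 were 28.2%, 30.7%, 1.72% and 2.38%. Without thinning, 54.5%, 57.5%, 4.65% and 6.42% of cells had an S1pr1 UMI. For Klf2 the unthinned shares were 96.7%, 97.9%, 40.0% and 54.1%, so most CD8-IFNγRKO tumor cells then had a Klf2 UMI. Myeloid-like barcodes without a UMI of Cd3e, Cd8a or Cd8b1, which would set a background, were too few to do so. S1pr1 was at 0 of 5 in tumor control (median 5887 UMIs) and 0 of 4 in tumor CD8-IFNγRKO (median 1892 UMIs). So few barcodes leave a wide range of background shares possible.

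Cd69 was at 411 CPM in LN control, 374 in LN CD8-IFNγRKO, 76.4 in tumor control and 115 in tumor CD8-IFNγRKO cells. The retention gene was thus lower in the tumors, together with the receptor that its product removes from the surface. The log2 ratio of tumor over LN was −2.41 (−2.46 to −2.36) in control and −1.70 (−1.73 to −1.66) in CD8-IFNγRKO cells. The summed level of 7 immediate early genes was also higher in LN, at 4845 and 4589 CPM against 2823 and 2020 in tumors. Past 2-fold, 3 of them were lower and 1 higher in control tumors, and 4 were lower in CD8-IFNγRKO tumors. Their part in the Cd69 difference was not tested. Cd69 UMIs were present in 43.6% of LN control, 40.9% of LN CD8-IFNγRKO, 12.9% of tumor control and 18.2% of tumor CD8-IFNγRKO cells.

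Cd44 ran the other way, with 20.5 CPM in LN control, 14.7 in LN CD8-IFNγRKO, 86.2 in tumor control and 82.1 in tumor CD8-IFNγRKO cells. Its log2 ratio of tumor over LN was 2.02 (1.91 to 2.14) in control and 2.40 (2.27 to 2.54) in CD8-IFNγRKO cells. The shares of cells with a Cd44 UMI were 2.55% and 1.81% in LN and 13.9% and 12.7% in tumors. S1pr4 was at 84.6, 93.8, 79.0 and 60.8 CPM in the same order of libraries. Its log2 ratio was −0.10 (−0.17 to −0.03) in control and −0.62 (−0.68 to −0.55) in CD8-IFNγRKO cells. In cells of 4000 to 8000 UMIs alone the S1pr4 ratio was 0.15 in control and −0.16 in CD8-IFNγRKO. S1pr5 was barely detected, at 3, 1, 4 and 32 UMIs in the whole libraries, and no fold is given for it. From a list of 4 other genes linked to S1PR5-bearing effector cells, 2 are named here, and both were well above it in tumors. Tbx21, the effector transcription factor T-bet, was at 106 and 88.2 CPM, and Zeb2, which acts with it, at 49.0 and 42.6 CPM.

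A gene was counted as past the fold at a log2 ratio of 1 (2-fold) or more between tissues, among genes of at least 50 CPM in 1 of the 2 libraries. S1pr1, Klf2 and Cd69 were past it downwards and Cd44 upwards, in both genotypes, among the 5 members that met the level. Of all genes, 27.8% were past it in control cells, 9.21% downwards and 18.5% upwards, and 31.7% in CD8-IFNγRKO cells, 11.2% downwards and 20.4% upwards. The median log2 ratio was −2.41 and −1.70 over these 5 members, against 0.20 and 0.23 over all genes. Since the members were chosen with earlier results of these data known, these counts and medians are a description only. The 2 tissue comparisons use different libraries.

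**Figure D2:**
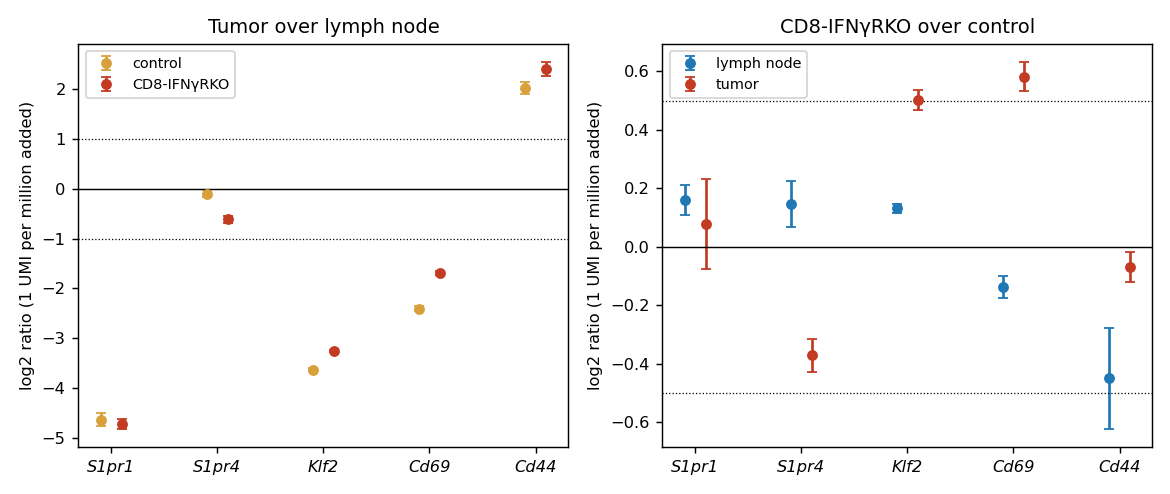
Left, log2 ratio of tumor over LN in each genotype; right, log2 ratio of CD8-IFNγRKO over control in each tissue, for 5 genes (points, pooled libraries with 1 CPM added; bars, exact conditional 95% intervals; dotted lines, the fold limits). The tissue ratios reach −4.72 for S1pr1, and the genotype ratios stay between −0.45 and 0.58.

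The neighbouring genes of the pathway, from lists written with earlier results known, gave the following counts, to be read beside the shares of all genes given above. Of 6 transcription factors of naive and recirculating T cells, 5 were lower in tumors in both genotypes. These included Foxo1, which turns on Klf2, at 208 and 210.0 CPM in LN against 59.3 and 49.7 in tumors, and Klf3, a relative of Klf2, at 138 and 165 against 4.55 and 8.12 CPM. Elf4, a further regulator of Klf2, did not pass the fold, with log2 ratios of −0.37 and −0.39. Of 9 residency genes, 6 met the level, and 4 were higher and 1 lower in tumors in both genotypes. Rgs1, which dampens chemokine and S1P receptor signalling, was at 102 and 105 CPM in LN and 338 and 453 in tumors, and Itgae, the αE integrin, was the lower one at 86.2 and 85.1 against 0.607 and 0.426 CPM. Of 10 other genes of the S1P pathway only Gnai2 and Grk2, a G protein and a receptor kinase, met the level, and neither passed the fold. Of 9 homing genes 8 met the level, with 2 higher and 3 lower in both genotypes. Their median log2 ratio was 0.23 in control and 0.36 in CD8-IFNγRKO, near the 0.20 and 0.23 of all genes. Ccr7, the receptor that guides T cells into LN, was among the lower homing genes at 584 and 640.5 CPM in LN and 68.5 and 62.1 in tumors. None of the 3 ezrin, radixin and moesin genes, whose products link CD44 to the cytoskeleton, passed the fold. Among the 4 genes linked to S1PR5-bearing effector cells, 2 met the level in control and 1 in CD8-IFNγRKO. All that met it were past the fold and higher in tumors. No gene of this list reached the level in either LN library. Each counted gene thus met it through the tumor library and could not have been called lower. Zeb2, named above, was under the level in both tumor libraries.

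In LN no member passed the fold limit between genotypes, while in tumors Cd69 and Klf2 were higher in CD8-IFNγRKO cells. The fold limit for genotype was a log2 ratio of 0.5 in either direction. In LN, 0.581% of 2752 genes were past it, 0.291% in each direction, and no member was. S1pr1 stood at 0.16 (0.11 to 0.21), S1pr4 at 0.15 (0.07 to 0.22) and Klf2 at 0.13 (0.12 to 0.15) on the log2 scale. Cd69 was slightly below control at −0.14 (−0.17 to −0.10), and Cd44, below the level for the count, at −0.45 (−0.62 to −0.28). These shifts were small but lay outside the interquartile range of all LN genes, −0.03 to 0.09. Of the 2752 genes, 9 had a lower ratio than Cd44 and 116 a lower one than Cd69, while 220 had a higher one than S1pr1.

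In tumors Cd69 was at a log2 ratio of 0.58 (0.53 to 0.63), which is 1.5-fold, and Klf2 at 0.50 (0.47 to 0.54), which is 1.42-fold. Pooled in this way, Klf2 lay on the limit. Its ratio was 0.46 under another scaling of the libraries. Over other choices of cell filter, scaling, added CPM and thinning it reached 0.83. These 2 of the 4 members compared were past the limit, against 12.7% of 3094 genes in either direction, 7.24% upwards and 5.49% downwards. S1pr4 was at −0.37 (−0.43 to −0.32), Cd44 at −0.07 (−0.12 to −0.02) and S1pr1, too low for the count, at 0.08 (−0.07 to 0.23). In CD8-IFNγRKO tumors Klf2 was thus nearer to its LN level than in control tumors, while the pooled S1pr1 interval included 0. Pooling gives deep cells more weight, and CD8-IFNγRKO tumor cells were the deeper ones. After thinning, 2.38% (2.07 to 2.73) of CD8-IFNγRKO and 1.72% (1.42 to 2.07) of control tumor cells had an S1pr1 UMI. Over the same choices of filter, scaling, added CPM and thinning, the S1pr1 ratio ran from 0.03 to 0.42. The size of the S1pr1 difference thus depended on these choices. Of the interferon-induced genes 2 met the level and neither passed the limit, with Isg15 at 154 CPM in control and 186 in CD8-IFNγRKO tumor cells. Among the 4 genes linked to S1PR5-bearing effector cells, 2 met the level, with a median log2 ratio of −0.39. From these, 1 was past the limit and lower in CD8-IFNγRKO tumor cells, and it was neither Tbx21 nor Zeb2. That gene met the level in the control library alone, so it could not have been called higher. The median of the 2 genes shares this limit. The 7 immediate early genes, which also respond to dissociation, summed to 2823 CPM in control and 2020 CPM in CD8-IFNγRKO tumor cells. Nr4a1, a gene switched on by T cell receptor signals, was at 261 and 124 CPM. The sum and Nr4a1 were thus lower where Cd69 and Klf2 were higher, but Fos (164 and 210.1 CPM) and Jun (198 and 258 CPM) were higher there too. Their part in the result was not tested.

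The genotype difference varied with the depth of the cell, and tumor CD8-IFNγRKO cells were the deeper ones. Among tumor cells of 1600 to under 4000 UMIs, Klf2 was at 852 CPM in 1467 CD8-IFNγRKO cells and 358 CPM in 1149 control cells, a log2 ratio of 1.25 (1.16 to 1.35). At 4000 to under 8000 UMIs it was at 405 and 187 CPM, a log2 ratio of 1.12 (1.05 to 1.18). In the deeper cells the ratio was smaller, 0.32 (0.26 to 0.38) at 8000 to under 16000 UMIs and 0.40 (0.34 to 0.47) from 16000 UMIs. The S1pr1 ratio was 0.46 (0.16 to 0.76) and 0.92 (0.62 to 1.23) in the shallower cells and 0.04 (−0.28 to 0.36) and 0.01 (−0.34 to 0.36) in the deeper ones. Cd69 was higher in CD8-IFNγRKO cells in all 4 depth ranges, with ratios of 0.45 to 0.97. S1pr4 ratios ran from −0.40 to −0.18. In LN, in which few cells passed 8000 UMIs, Cd69 ratios were −0.16, −0.13 and −0.16 over 3 depth ranges. Cd44 there was at −0.82 (−1.22 to −0.41), −0.16 (−0.37 to 0.06) and −0.47 (−0.90 to −0.04), from levels of at most 32.7 CPM.

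**Figure D3:**
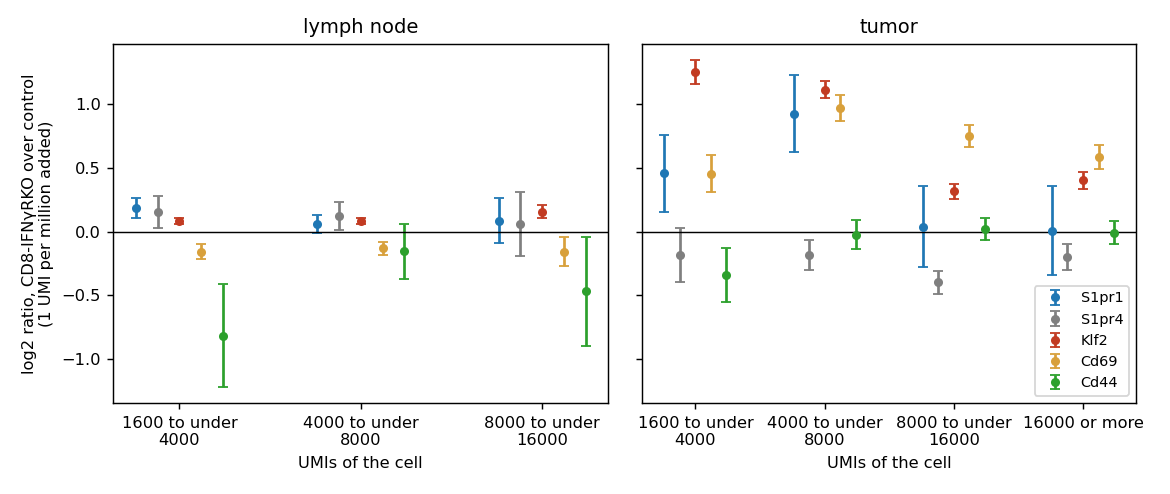
Log2 ratio of CD8-IFNγRKO over control for 5 genes by the UMIs of the cell, in LN (left) and tumor (right); points are pooled cells of that depth with 1 CPM added, bars are 95% counting intervals. In tumors Klf2 falls from 1.25 to 0.40 between the shallowest and the deepest cells, while in LN the lowest ratio is that of Cd44 at −0.82 in the shallowest cells and the other 4 genes lie within 0.19 of 0.

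Within each library, the members could also be compared cell by cell after thinning. CD69 protein opposes S1PR1 on the surface, but in these transcripts Cd69 and S1pr1 did not exclude each other. In LN control cells S1pr1 was at 214 CPM in cells with a Cd69 UMI and 221 CPM in cells without, a log2 ratio of −0.04 (−0.17 to 0.08). In LN CD8-IFNγRKO cells the values were 233 and 248 CPM, a ratio of −0.09 (−0.20 to 0.02). Both LN intervals included 0. In the small class of LN control cells with a Ccl5 UMI, described further on, S1pr1 was at 100.2 CPM with a Cd69 UMI and 158 without (−0.65, −1.30 to −0.01), and in that of LN CD8-IFNγRKO cells at 147 and 156 CPM (−0.08, −0.72 to 0.54).

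In tumors cells with a Cd69 UMI had more S1pr1, at 25.7 against 11.0 CPM in control (log2 ratio 1.15, 0.58 to 1.70) and 32.5 against 14.3 CPM in CD8-IFNγRKO cells (1.13, 0.74 to 1.52). Without thinning the CD8-IFNγRKO ratio was −0.03. S1pr1 itself went with the depth of the cell there, from 50.6 CPM in cells of 1601 to 5233 UMIs to 2.99 CPM in those of 15333 UMIs or more. Klf2 also went with Cd69. In control tumor cells it was at 164 CPM with no Cd69 UMI, 403 with 1, 713 with 2 and 811 with 3 or more. In CD8-IFNγRKO tumor cells it was at 292, 544, 903 and 1384 CPM. Both genes were also lower in deeper cells: between the shallowest and the deepest tumor cells Klf2 went from 323 to 146 CPM in control and from 759 to 163 CPM in CD8-IFNγRKO, and Cd69 from 172 to 60.9 and from 234 to 92.4 CPM, after thinning. The part of depth in the relation was not tested. The Klf2 ratio of cells with over without a Cd69 UMI was 1.47 (1.33 to 1.61) in control and 1.14 (1.05 to 1.23) in CD8-IFNγRKO tumors, and 0.73 and 0.49 without thinning. In LN it was 0.08 (0.04 to 0.12) and 0.07 (0.04 to 0.11), and without thinning the LN control value turned to −0.02.

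**Figure D4:**
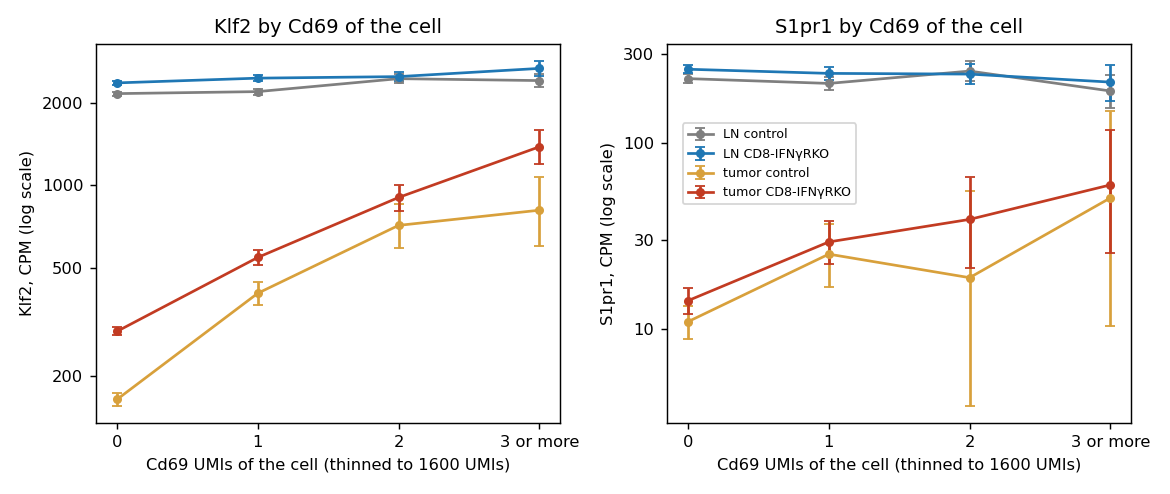
Klf2 (left) and S1pr1 (right), in CPM on log axes, in cells with 0, 1, 2 and 3 or more Cd69 UMIs after thinning to 1600 UMIs (points, pooled cells; bars, exact 95% Poisson intervals). Klf2 goes from 164 to 811 CPM in control tumor cells and from 292 to 1384 CPM in CD8-IFNγRKO tumor cells, while the LN lines are nearly level.

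Klf2 and S1pr1 went together in all 4 libraries. S1pr1 was at 224 CPM in LN control cells with a Klf2 UMI and 173 without (log2 ratio 0.37, 0.16 to 0.59), and at 248 and 182 CPM in LN CD8-IFNγRKO cells (0.45, 0.23 to 0.68). In tumors the contrast was wider, 42.5 against 6.33 CPM in control (2.57, 2.09 to 3.04) and 42.9 against 8.53 CPM in CD8-IFNγRKO cells (2.20, 1.84 to 2.57). In both tumor libraries S1pr1 per Klf2-bearing cell was still well under the LN level. By Pearson's r across cells of log values, Klf2 was the first of 3751 genes for S1pr1 in LN (r = 0.072 and 0.073 in control and CD8-IFNγRKO) and the first of 3782 in tumors (0.153 and 0.178). Il7r, the survival cytokine receptor of memory T cells, and Ccr7 came next in tumors, with mean r of 0.150 and 0.143. Lgals1, Gapdh and Gzmb, a galectin, a glycolysis enzyme and granzyme B, were at the other end with −0.197, −0.183 and −0.149. These correlations are weak, share the depth and the sparse counts of the cells, and are a description.

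In LN the 3 genes closest to Klf2 were Jund, Jun and Tsc22d3 (mean r of 0.147, 0.141 and 0.117), those closest to Cd69 were Nfkbia, Zfp36 and Egr1 (0.076, 0.070 and 0.069), and those closest to Cd44 were Ccl5, Ly6c2 and Itgb1 (0.141, 0.115 and 0.097). For Klf2 and Cd69 in tumors the 3 closest genes were the same immediate early genes, Fos, Jun and Zfp36. The mean r was 0.271, 0.232 and 0.214 for Klf2 and 0.227, 0.180 and 0.175 for Cd69. In tumor cells with 4 or more UMIs of the immediate early list Klf2 was at 272 CPM in control and 611 in CD8-IFNγRKO, against 91.6 and 121 in cells with none. Cd69 was at 136 and 219 CPM in the former cells and 46.6 and 58.5 in the latter. Among the cells with 4 or more, the Klf2 ratio of cells with over without a Cd69 UMI was 1.37 (1.22 to 1.52) in control and 0.82 (0.72 to 0.92) in CD8-IFNγRKO cells. In cells with 1 to 3 it was 0.94 (0.54 to 1.33) and 0.74 (0.54 to 0.94). Each class still spans a range of immediate early counts, and the part of these genes in the relation was not tested.

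Tcf7 encodes a transcription factor of naive and stem-like T cells. In both tumor libraries most S1pr1 UMIs after thinning lay in cells without a Tcf7 UMI. At this depth 2687 of 6403 LN control and 2838 of 6690 LN CD8-IFNγRKO cells also had none. Their S1pr1 was at 203 and 225 CPM. A missing Tcf7 UMI thus does not show that a cell lacked the transcript. Tumor cells with a Tcf7 UMI had a much higher level of S1pr1 than the other tumor cells. They were 2.77% of control and 5.34% of CD8-IFNγRKO tumor cells (177 and 446 cells). S1pr1 was at 166 CPM in these control cells and 129 in these CD8-IFNγRKO cells, against 8.55 and 11.3 CPM in cells without a Tcf7 UMI. LN cells with a Tcf7 UMI, thinned in the same way, were at 229 CPM in control and 255 in CD8-IFNγRKO. In both genotypes the tumor cells with a Tcf7 UMI were thus well above the other tumor cells and below that LN level. Their S1pr1 log2 ratio of CD8-IFNγRKO over control was −0.36 (−0.88 to 0.17), an interval that included 0. Klf2 was at 858 and 1536 CPM with a Tcf7 UMI and 184 and 289 without. Cd69 was at 275 and 363 CPM against 94.5 and 134. Between genotypes Klf2 was higher in CD8-IFNγRKO cells on both sides, with a log2 ratio of 0.84 (0.64 to 1.05) with a Tcf7 UMI and 0.65 (0.57 to 0.73) without. Among cells with a Tcf7 UMI, S1pr1 did not differ by Cd69 beyond counting error, at −0.05 (−1.06 to 0.89) in control and 0.29 (−0.34 to 0.91) in CD8-IFNγRKO cells.

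In LN the cells with a Ccl5 UMI, a chemokine of memory and effector CD8 T cells, were 6.78% of control and 5.61% of CD8-IFNγRKO cells. They had more Cd44, 67.7 against 13.2 CPM in control and 58.3 against 9.11 CPM in CD8-IFNγRKO cells. They had less S1pr1, 130 against 225 CPM and 152 against 247 CPM. Klf2 in them was close to the other LN cells, at 2163 against 2225 CPM and 2285 against 2431 CPM. LN cells with 2 or more UMIs of the T cell receptor-induced genes Nr4a1, Nr4a3 and Egr2 had 667 CPM of Cd69 in control and 619 in CD8-IFNγRKO, against 408 and 357 CPM in cells with none. These were 89 and 100 cells, and their S1pr1 was at 126 and 225 CPM against 225 and 243 CPM. Their S1pr1 log2 ratio of CD8-IFNγRKO over control was 0.83 (−0.02 to 1.72), an interval that included 0.

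Cells of small clones had more S1pr1, Klf2 and Cd69 than cells of large ones. Clone size was read from paired T cell receptor α and β chains in the tumor libraries. A clone was found for 60.3% of kept control and 68.8% of kept CD8-IFNγRKO tumor cells, in 259 and 429 clones, the largest of 1104 and 1463 cells. After thinning, S1pr1 in cells of clones seen once was at 129 CPM (91.0 to 178) in 179 control cells and 126 CPM (98.7 to 159) in 351 CD8-IFNγRKO cells. In clones of 10 or more cells it was at 5.21 CPM (3.56 to 7.36) and 3.72 CPM (2.55 to 5.26). In clones of 2 to 9 cells S1pr1 was at 15.8 CPM (5.12 to 36.8), from 5 UMIs, in control and 72.1 CPM (42.7 to 114) in CD8-IFNγRKO. Cells without a clone were at 16.6 and 28.8 CPM. Among these classes the expanded clones thus had the lowest S1pr1 in both genotypes, with overlapping intervals against clones of 2 to 9 cells in control.

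Klf2 was at 834 and 1745 CPM in single-cell clones, 243 and 805 CPM in clones of 2 to 9 cells, and 166 and 240 CPM in clones of 10 or more, for control and CD8-IFNγRKO tumors. Cd69 was at 286 and 378 CPM, 161 and 236 CPM, and 94.5 and 118 CPM in the same 3 classes. Cd44 was lower in single-cell clones, at 55.9 (31.9 to 90.7) and 58.8 (40.4 to 82.5) CPM, than in clones of 10 or more, at 93.8 and 88.9 CPM. In clones of 2 to 9 cells Cd44 was at 136 and 76.1 CPM. Without thinning, Cd44 in single-cell and large clones was at 78.0 (60.9 to 98.4) and 85.2 CPM in control. In CD8-IFNγRKO it was then at 64.1 and 83.7 CPM. S1pr4 in single-cell and large clones was at 83.8 and 91.0 CPM in control and 121 and 72.4 CPM in CD8-IFNγRKO cells. Without thinning, the Klf2 log2 ratio of CD8-IFNγRKO over control was 1.01 (0.89 to 1.14) in single-cell clones, 1.04 (0.82 to 1.28) in clones of 2 to 9 cells and 0.27 (0.22 to 0.32) in clones of 10 or more. The Cd69 ratio was 0.76 (0.53 to 1.00), 0.39 (0.09 to 0.70) and 0.45 (0.38 to 0.52). Cells of 1 clone share their origin and all cells share 1 library, and clones seen once had shallower cells, with medians of 4049 and 4082 UMIs in control and CD8-IFNγRKO tumors against 6392 and 10551 UMIs in large clones. The depth of the cell and the size of its clone thus went together, and the part of depth in these levels beyond the thinning was not tested.

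**Figure D5:**
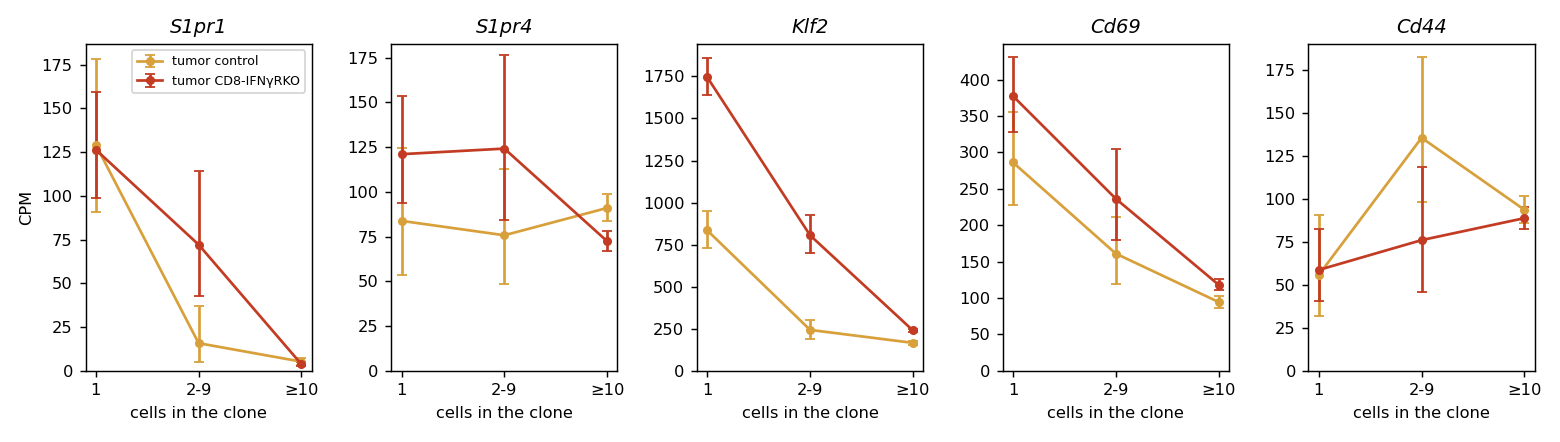
S1pr1, S1pr4, Klf2, Cd69 and Cd44 in tumor cells by the number of cells in their clone (1, 2 to 9, 10 or more), in CPM after thinning to 1600 UMIs; points are pooled cells and bars exact 95% Poisson intervals. S1pr1 falls from 129 to 5.21 CPM in control and from 126 to 3.72 CPM in CD8-IFNγRKO, and Klf2 is higher in CD8-IFNγRKO cells in all 3 classes of clone.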

How the data were processed

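Cells were barcoded with 10x 5′ chemistry, and the deposited matrices hold counts of UMIs per gene and barcode, which the authors made with Cell Ranger on mm10, per the submitters' processing notes. The deposited T cell receptor tables list each contig with its counts of reads and of UMIs. The members and gene lists were chosen with earlier results of these data known. A barcode was kept if it had 200 to 6000 detected genes, a mitochondrial share of 3% or less and no single gene above 20% of its UMIs, and if Cd8a, Cd8b1 and Cd2 each had 1 UMI or more. Those with at least 2 UMIs of each of 3 or more of 8 myeloid markers were removed (1, 0, 9 and 4). No doublet caller was run. UMIs were summed per library and given per 1000000 UMIs of the library (CPM). With 1 library per group no test was possible, so ratios were log2 after adding 1 CPM, with exact conditional binomial 95% intervals. Shares of cells and cell classes were computed after drawing each cell down to 1600 UMIs, which left out 237, 41, 701 and 278 shallower cells (LN control, LN CD8-IFNγRKO, tumor control, tumor CD8-IFNγRKO). T cell receptor segments stayed out of the counts of genes. Clones were cells with the same α and β genes and junctions. The text names the members, genes of the fixed lists beside their counts, and for each member the 3 genes with the highest and lowest mean correlation. On counts simulated with counting error alone, 94.0% to 95.5% of 200 changed genes lay within their interval in the 4 comparisons. This checks the calculation of the intervals and holds no variation between mice or between cells. Python 3.11 with numpy, scipy and pandas was used. Alternatives covered filters on cells and genes, scaling, the added CPM and thinning.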

Additional observations from a re-analysis of the deposited data

Results flagged for a closer look

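Among the members, 2 had opposite signs of the genotype ratio in the 2 tissues with counting intervals that did not include 0, and the difference was not tested because each group is 1 library. Cd69 was lower in CD8-IFNγRKO than in control cells of LN (log2 ratio −0.14) and higher in tumors (0.58), a difference between tumor and LN of 0.72. S1pr4 was higher in LN (0.15) and lower in tumors (−0.37), a difference of −0.52. The tumor sign of S1pr4 was not the same in all cells. After thinning it was 0.59 (0.08 to 1.12) in tumor cells with 3 or more UMIs of the interferon-induced genes. In those with 0 and with 1 to 2 it was −0.43 and −0.23.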

How the results depend on the processing

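The tissue ratios of S1pr1, Klf2, Cd69 and Cd44 kept their direction and stayed past 2-fold in both genotypes under all 14 alternatives, from −5.84 to −3.51 for S1pr1, −3.94 to −2.40 for Klf2, −2.72 to −1.12 for Cd69 and 1.66 to 2.78 for Cd44. The alternatives with a gene minimum of 200 or 10 CPM change only which genes are compared, so they could not move these ratios. The S1pr4 tissue ratio stayed within 2-fold, from −0.40 to 0.15 in control and −0.90 to −0.16 in CD8-IFNγRKO. In control it kept its sign in 10 of the 14 alternatives. In tumors the number of members past the genotype limit fell from 2 to 1 under median of ratios scaling, without cells under 2000 UMIs, with 10 CPM added, at a gene minimum of 200 CPM and in cells without a Tcf7 UMI, and to 0 in clones of 10 or more cells. The Klf2 ratio ran from 0.27 to 1.12 and that of Cd69 from 0.45 to 0.97. S1pr1 ran from −0.34 in clones of 10 or more cells to 0.92 in cells of 4000 to 8000 UMIs. The comparisons within these depths, large clones and cells without a Tcf7 UMI were chosen after seeing the data. With a gene minimum of 200 CPM, 291 and 326 genes passed the tissue fold in control and CD8-IFNγRKO cells, and 8 and 114 the genotype limit in LN and tumor. With 10 CPM the counts were 2103, 2372, 50 and 947, since more genes were compared. Without thinning, 5 members in place of 3, S1pr5 aside, had a higher share of cells in CD8-IFNγRKO tumors, and S1pr1 was higher with a Cd69 UMI in 1 library in place of 2. The ratio for tumor CD8-IFNγRKO then turned to −0.031 and that of Klf2 by Cd69 in LN control to −0.023. No paired analysis was possible because each group is 1 library, and for the same reason no library could be left out.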
